A study of Mus musculus with 5 samples.

Results

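JunB distal sites without H3K27ac were examined in mouse muscle stem cells (MuSCs). These are stretches of the genome that carried a JunB CUT&RUN-seq peak, lay farther than 3000 bp from every transcription start site (TSS) of the GENCODE M21 annotation, and shared no base with an H3K27ac peak. The JunB peaks of 4 libraries on chromosomes 1 to 19 and X were merged into 18748 regions. Of these, 7990 regions (42.6%) met the definition, 3802 were distal and overlapped H3K27ac, and 6956 lay within 3000 bp of a TSS. The sites were defined by the presence of a JunB peak in at least 1 list and by the absence of a peak in the H3K27ac list, so neither is a finding about them. They made up 67.8% of all distal JunB regions, which describes that choice.

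The libraries were made from freshly isolated MuSCs of muscle: 3 from young mice (young 1, 2 and 3), 1 from aged mice and 1 H3K27ac library whose mouse age the labels do not give. The labels of the 5 libraries give no genotype, strain or age in months, and the study's methods name C57BL/6 for its aged mice without tying them to these libraries. The methods also describe the H3K27ac data as the study's own from mouse MuSCs and, in the same sentence, name a human reference epigenome project as their source, so the origin of the list that defines the sites is not fully clear. Groups follow the sample labels, which give young and aged, although the design text speaks of mice given DMSO or MVC. In the part of the study's own peak sheet held here, every peak headed young had the coordinates of a peak in the library labelled aged, and many of those headed aged had the coordinates of a peak in a young library. Other evidence goes with the labels. The library labelled aged held 14123 peaks when every chromosome was counted. The study reports the same total for aged mice, and its reporting summary divides the JunB libraries between ages as the labels do. The sheet headings and the design text still differ from the labels. All statements on age therefore refer to "the library labelled aged", and with 1 such library no test between ages was possible.

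JunB is a basic leucine zipper protein that pairs with Fos or other Jun-type partners to form AP-1, which binds the 7-base element TGACTCA or its reverse complement TGAGTCA. In many cell types AP-1 opens and marks enhancers, the distal elements that raise transcription of genes nearby. Acetylation of histone H3 at lysine 27 is a mark of active enhancers and promoters, and an enhancer that is bound but lacks it can be poised, weak or inactive. MuSCs, also called satellite cells, are the Pax7-expressing stem cells that repair muscle fibres.

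The H3K27ac list was first set beside marker genes. A peak within 3000 bp of a TSS was present for 8 of 12 MuSC markers (Myod1, Cdh15, Itga7, Vcam1, Sdc4, Megf10, Fgfr4 and Chrdl2) and was missing for Pax7, Myf5, Cxcr4 and Calcr. Such a peak was also present for Csf1r of 5 leukocyte markers, Pecam1 and Tek of 4 endothelial markers, Dcn of 4 fibro-adipogenic markers and Tnnt3 of 4 myofibre markers. The part of other cells in the results below was not tested. The lists held between 3796 and 13971 JunB peaks on these chromosomes and 39473 H3K27ac peaks. No read count comes with a peak, and the depth of each library is unknown from the files. The JunB lists also stop at different thresholds, since the weakest peak had a −log10 p of 3.01 in young 1, 5.33 in young 2, 5.22 in young 3 and 3.01 in the library labelled aged.

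The sequences of the strongest shared sites show where the AP-1 element stands. The 10 sites with the highest fold enrichment in their weakest library, among those with a peak in all 4 libraries, were taken. In 8 of these 10 the merged region held TGACTCA or its reverse complement, yet in 0 of the 10 was it within 50 bp of the summit, the position of highest signal that the peak caller wrote. The 41 bases around the match nearest to the summit are shown for 6 of the 8 sites from the plus strand of GRCm38 (mm10), with the element in capitals. Each is named by the gene with the nearest TSS.
Gm14270, chr2:170248063-170248103: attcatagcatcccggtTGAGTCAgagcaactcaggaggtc
AC151280.3, chr17:68165292-68165332: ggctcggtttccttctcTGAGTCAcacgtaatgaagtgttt
Gm24474, chr12:70590809-70590849: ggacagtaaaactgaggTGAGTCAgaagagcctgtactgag
Nfatc2, chr2:168518259-168518299: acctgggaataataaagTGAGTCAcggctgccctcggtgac
Col27a1, chr4:63316202-63316242: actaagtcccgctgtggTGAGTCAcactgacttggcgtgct
Baiap2, chr11:119975940-119975980: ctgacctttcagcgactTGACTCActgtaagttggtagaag
The centre of the element lay 90 bp from the summit at Gm14270, -151 bp at AC151280.3, 178 bp at Gm24474, 117 bp at Nfatc2, -113 bp at Col27a1 and -115 bp at Baiap2. It thus stood on either side of the summit and at a distance from it.

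For comparison, the bases up to 50 bp on each side of the summit itself are shown for a site among the 3 strongest by −log10 p in every JunB library (Gm24474) and for a site that had no match anywhere in its region (Cntnap5b).
Gm24474, chr12:70590601-70590701: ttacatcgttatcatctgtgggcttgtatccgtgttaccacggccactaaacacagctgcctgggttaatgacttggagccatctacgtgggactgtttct
Cntnap5b, chr1:100180192-100180292: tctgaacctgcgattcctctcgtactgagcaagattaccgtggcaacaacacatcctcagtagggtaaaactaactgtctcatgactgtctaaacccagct
Neither stretch holds the 7-base element, which says only that these letters are not in this window.

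This displacement was found across the sites. Among the 1704 sites with a peak in at least 2 libraries, 24.7 matches per 100 sites per 100 bp stood 120 to 240 bp from the summit, against 9.22 within 60 bp and 2.36 at 300 to 500 bp. The density at 120 to 240 bp was 24.9 with the summits of young 1, 27.3 with young 2, 28.4 with young 3 and 23.9 with the library labelled aged, and within 60 bp it was 9.61, 11.6, 11.2 and 8.35. Every library therefore had more matches beside its summits than under them. Distal regions with H3K27ac showed the same shape (19.2 at 120 to 240 bp and 6.74 within 60 bp, 2122 regions). What sets the summits off the element was not tested, but it bears on every measure taken at the summit, and shares of sites with the element are given below for a window of 300 bp to each side.

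**Figure D1:**
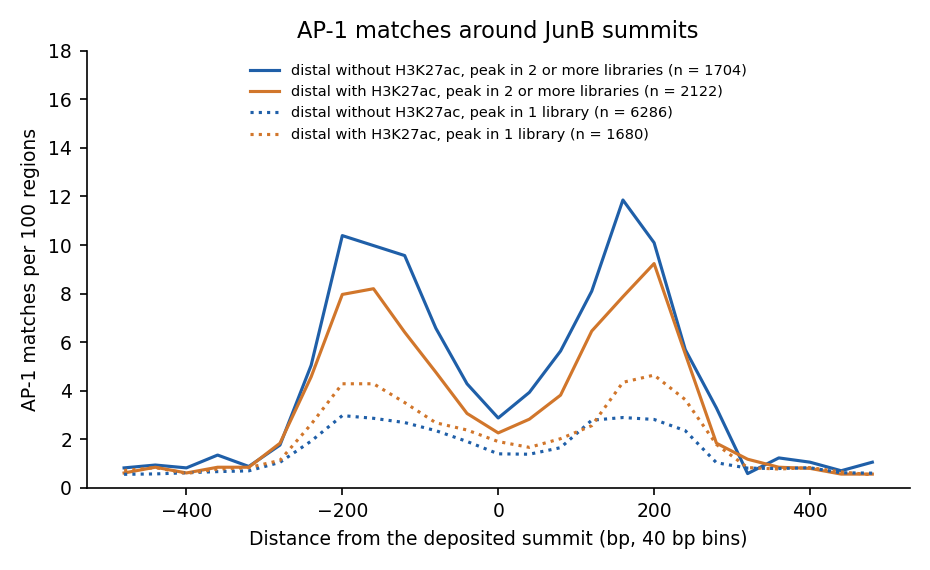
Matches of TGACTCA or its reverse complement per 100 regions (vertical axis) in 40 bp bins by distance from the deposited summit in bp (horizontal axis), for distal regions without (blue) and with (orange) H3K27ac, with a peak in at least 2 JunB libraries (solid) or in 1 (dotted). All 4 lines have 2 humps, near 160 to 200 bp on each side, and a dip at the summit, and the solid blue line of the 1704 shared sites without H3K27ac is the highest at both humps.

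TGACTCA or its reverse complement stood within 300 bp of the summit in 2570 of the 7990 sites (32.2%, exact 95% binomial interval 31.1 to 33.2). The share was 9.03% in windows of the same length tiled over all distal genome sequence without H3K27ac, and 8.24% in such windows centred 1000 bp to either side of the summits. It differed with the number of libraries that shared a site: 24.1% in 1 library, 51.6% in 2, 65.9% in 3 and 74.0% (70.0 to 77.7) in all 4. Allowing any middle base (TGANTCA, which includes TGACTCA), 81.7% of the 940 sites in 3 or 4 libraries had a match against 18.4% of their flanks. These intervals cover counting error only.

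Distal regions with H3K27ac were set beside the sites. In 3 or 4 libraries the share was 70.3% (67.3 to 73.2) without H3K27ac and 61.4% (58.9 to 63.9) with it, whereas among regions of 1 library it was 24.1% (23.0 to 25.2) and 37.6% (35.2 to 39.9). The second order turned when only regions whose 31 bases at the summit stand once in the genome were counted, a restriction chosen after seeing the data. The share in 1 library was then 43.4% (41.7 to 45.2) without and 38.7% (36.2 to 41.1) with H3K27ac, and in 3 or 4 libraries 72.9% (69.8 to 75.8) and 64.4% (61.8 to 67.0). The other elements were scanned in the same windows, on both strands. CAGCTG, an E-box form bound by Myod1, was present in 36.9% of the sites in 3 or 4 libraries (flanks 24.2%) and in 44.5% of the acetylated regions so shared (flanks 25.4%). GGAATG, the core of TEAD elements, was found in 36.5% (flanks 28.4%), TGTGGTT, a RUNX element, in 14.3% (flanks 15.7%), and TGACGTCA, the cyclic AMP response element, in 1.49% (flanks 0.532%). The CTCF element occurred in 0.957% (flanks 0.372%) and the NF-kB element in 7.55% (flanks 5.74%).

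**Figure D2:**
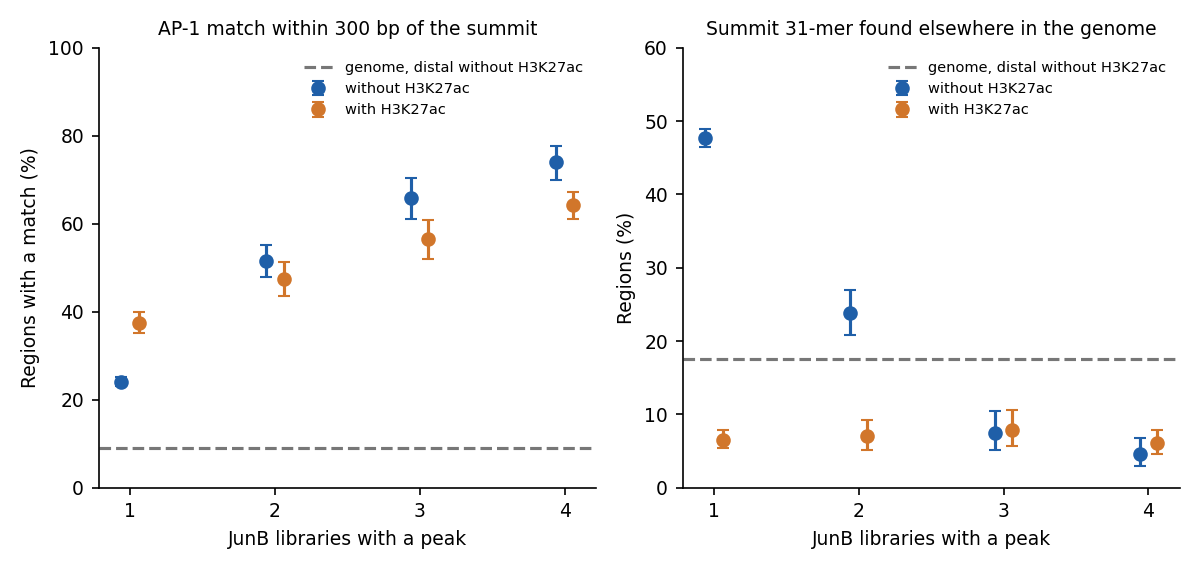
Left, percent of distal regions with TGACTCA or its reverse complement within 300 bp of the summit, and right, percent whose 31 bases at the summit stand more than once in the genome, by the number of JunB libraries with a peak, without (blue) and with (orange) H3K27ac. Bars are exact 95% binomial intervals and the dashed lines are the genome values, 9.03% and 17.6%. Without H3K27ac the left share runs from 24.1% to 74.0% and the right share from 47.7% to 4.66% between sites of 1 and of all 4 libraries.

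Most sites were seen in a single library. A peak in 1 library only was present at 6286 sites (78.7%), in 2 at 764 (9.56%), in 3 at 425 (5.32%) and in all 4 at 515 (6.45%). The share with a peak in at least 2 libraries was 21.3%, against 34.4% of all JunB regions and 55.8% of distal regions with H3K27ac. The single-library sites were mainly of the library labelled aged (3816) and of young 1 (2261), with 124 of young 2 and 85 of young 3. An aged peak with no young peak was found at 47.8% of the sites (background over all JunB regions, 44.9%), and a young peak with no aged peak at 36.1% (background, 25.7%). Young 1 and the library labelled aged are also the lists with the lowest thresholds. When every list was held to a −log10 p of at least 5.33, 5178 sites were left and 38.4% of them had an aged peak alone. Without young 1 the share with an aged peak alone was 74.1%, so that value rests on which young libraries are counted. The background over all JunB regions was computed for the main setting only, not for these or the alternatives below.

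**Figure D3:**
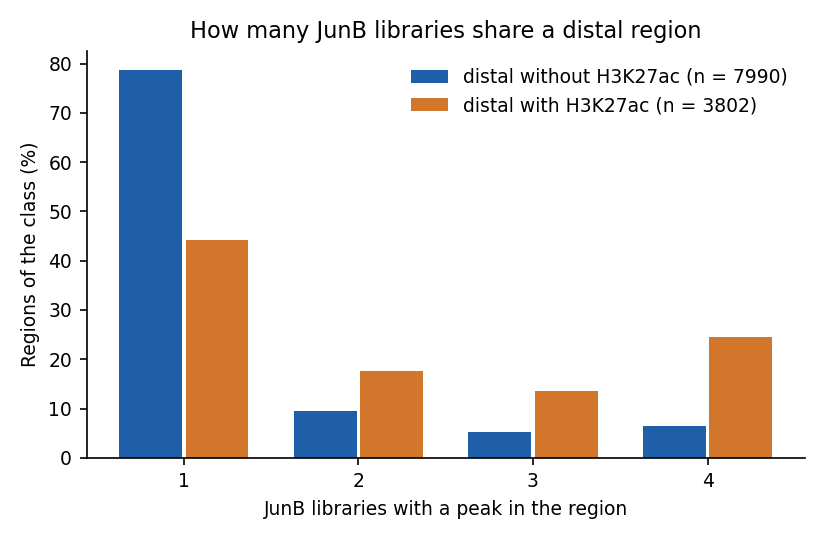
Percent of the 7990 distal regions without (blue) and the 3802 with (orange) H3K27ac (vertical axis) that had a peak in 1, 2, 3 or 4 JunB libraries (horizontal axis). Single-library regions make up 78.7% of the first and 44.2% of the second.

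The single-library sites differed from the shared ones in sequence as well. The 31 bases at the summit occurred elsewhere in the genome at 67.2% (65.2 to 69.1) of the sites of young 1 alone, 37.4% (35.8 to 38.9) of those of the library labelled aged alone, 22.6% of those of young 2 alone and 28.2% of those of young 3 alone. The share was 23.8% in 2 libraries, 7.53% in 3 and 4.66% in all 4, and 17.6% at distal genome positions without H3K27ac taken every 100 kb. Distal regions with H3K27ac showed no such step, with 6.55% in 1 library and 6.10% in all 4. Of the 3235 sites with a repeated 31-mer, only 133 (4.11%) were tandem repeats with a unit of 1 to 6 bases (at most 1 mismatch). Among those with at least 10 copies, the 21 bases shared by the most sites within 50 bp of their summits, apart from tandem repeats, were present at 69 and at 15135 places in the genome. They are shown as the clearest case of a dispersed copy, from the plus strand of mm10.
Shared 21 bases, chr15:55160724-55160744: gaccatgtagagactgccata
Of the 69 sites, 41 were of the library labelled aged alone, 25 of young 1 alone, and 2 had peaks in at least 2 libraries. A read that matches several copies equally well cannot be placed with certainty. Whether whole reads at these sites did so was not computed, since copies of 21 and 31 bases are shorter than a read. How multiply mapping reads were treated is not given in the sources used here. The study's reporting summary counts total and uniquely mapping reads, but names no library and does not say whether other reads were dropped. The part of such reads in the single-library sites was not tested. Restricted to peaks with a single-copy 31-mer at the summit, 4781 sites remained, 30.5% of them in at least 2 libraries and 50.1% with an aged peak alone. Among single-library sites with a single-copy summit, the AP-1 element stood within 300 bp at 52.4% of those of young 1 (18.8% without that restriction) and 39.2% of those of the library labelled aged (25.7% without it). Distal regions with H3K27ac had it at 46.1% and 34.2% under the same restriction.

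Within each JunB library, peaks at these sites were compared with peaks at distal regions with H3K27ac, as the mean over libraries of the within-library difference. The exact two-sided sign-flip permutation test over 4 libraries cannot give a p below 0.125, so none of the 5 comparisons could pass 0.05, and since libraries share regions the sequence differences are not independent. Median fold enrichment was 4.57 without and 6.14 with H3K27ac in young 1, 7.62 and 8.09 in young 2, 7.96 and 8.45 in young 3, and 4.50 and 5.36 in the library labelled aged. It was lower without H3K27ac in 4 of 4 libraries, by -0.21 ± 0.16 on the log2 scale (mean ± SD, n = 4, exact p = 0.125, adjusted p = 0.156). Among regions in at least 2 libraries the difference was -0.11, and among the 2000 strongest peaks -0.06.

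The share of a library's peaks found in another library was lower as well. It was 40.6% against 78.9% in young 1, 90.1% against 95.9% in young 2, 91.5% against 96.5% in young 3 and 25.4% against 63.9% in the library labelled aged. The difference was -5.79 percentage points in young 2 and -5.02 in young 3, against -38.2 in young 1 and -38.6 in the library labelled aged, with a mean of -21.9 ± 19.1 points (SD, n = 4, exact p = 0.125, adjusted p = 0.156). It was -10.0 points with the 2000 strongest peaks of every list. Repeat-masked bases made up 47.7% against 14.3% of the sequence within 50 bp of the summit in young 1, 16% against 13.8% in young 2, 14.7% against 14.3% in young 3 and 38.7% against 13.8% in the library labelled aged (mean difference 15.2 ± 16.4 points, SD, n = 4, exact p = 0.125, adjusted p = 0.156). Again young 1 and the library labelled aged carried the difference, and it was -1.13 points when each list was limited to its 2000 strongest peaks. GC content was lower in 4 of 4 libraries, by -1.31 ± 0.755 points (SD, n = 4, exact p = 0.125, adjusted p = 0.156).

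The AP-1 element within 50 bp of the summit differed in direction between libraries. Its share was 4.78% against 5.86% in young 1, 8.76% against 5.91% in young 2, 8.94% against 7.69% in young 3 and 3.85% against 4.77% in the library labelled aged, a mean difference of 0.523 ± 1.87 points (SD, n = 4, higher in 2 and lower in 2, exact p = 0.625, adjusted p = 0.625). It was higher without H3K27ac in all 4 libraries, by 1.56 points on average among regions in at least 2 libraries, 0.950 points among the 2000 strongest peaks and 1.46 points among peaks with a single-copy summit (exact p = 0.125 for each). Within 300 bp the libraries split further. The share was 66.2% against 59.8% in young 2 and 68.2% against 61.7% in young 3, but 36.1% against 55.2% in young 1 and 34.6% against 47.5% in the library labelled aged, so that the mean difference there was -4.79 points (exact p = 0.5).

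The sites lay nearer to H3K27ac peaks than distal genome sequence without H3K27ac did in general. The median distance to the nearest H3K27ac peak was 21.2 kb over all sites and 56.2 kb for distal genome positions without H3K27ac on a 1 kb grid, and 35.3% of sites against 19.3% of positions were within 10 kb. The median was 28.4 kb for sites of 1 library, 9.67 kb for 2, 7.71 kb for 3 and 7.01 kb for all 4. Beyond 100 kb lay 29.2% of the sites of 1 library, 1.75% of those in all 4 libraries and 39.8% of the grid. Sites of young 1 alone had the longest median among the single-library sites, 39.9 kb.

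**Figure D4:**
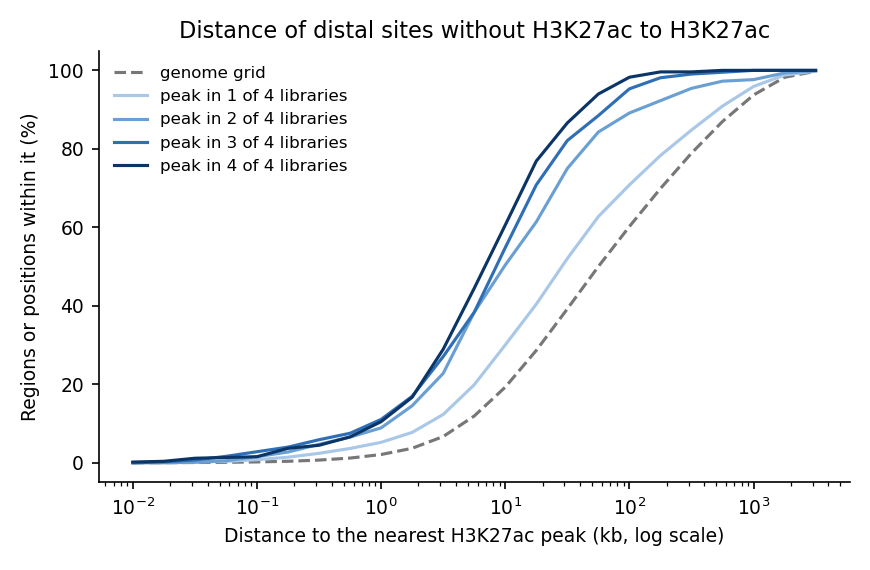
Percent of sites (vertical axis) within a given distance of the nearest H3K27ac peak (horizontal axis, kb, log scale) for sites with a peak in 1, 2, 3 or 4 JunB libraries (light to dark blue) and for distal genome positions without H3K27ac (dashed grey). At 10 kb the 4 site curves stand at 30.0%, 50.4%, 54.8% and 60.6% and the genome at 19.3%.

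By annotation, 4300 sites (53.8%) were intergenic, 3461 (43.3%) lay in introns and 229 (2.87%) overlapped an exon. By the summit base, 53.9% were intergenic, against 56.9% of the distal genome grid without H3K27ac. Intergenic sites made up 56.1% in 1 library and 206 of the 515 in all 4, where introns held 55.5%. The median distance to a TSS was 18.3 kb and to a TSS of a protein-coding gene 40.3 kb. Chromosome X was sparse in shared sites, with 0.0856 sites in 3 or 4 libraries per Mb against 0.173 to 0.512 on the autosomes. Distal regions with H3K27ac were also scarce there (0.251 per Mb against 1.10 to 1.98). Sites of the library labelled aged alone were fewest there too (0.997 per Mb against 1.27 to 1.80), as were all sites (2.41 against 2.68 to 3.68). Sites of young 1 alone were not scarce there (1.06 per Mb against 0.716 to 1.05).

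The 10 strongest shared sites had folds of 12.4 to 14.7 in their weakest library, and 4 were intergenic. The intergenic site at chr12:70590476-70591043, nearest to the small RNA gene Gm24474 and 130635 bp from the protein-coding Tmx1 (a thioredoxin-related protein of the endoplasmic reticulum), had a fold enrichment of 23.9, 23.5 and 22.0 in young 1, 2 and 3 and 13.9 in the library labelled aged. It lay 1593 bp from an H3K27ac peak. The site near Gm14270, 99693 bp from Zfp217 (a zinc finger transcription regulator), had folds of 23.3, 21 and 19 in the young libraries and 14.7 in the library labelled aged. At Nfatc2, a calcium-responsive transcription factor gene, an exon-overlapping site 33680 bp from the TSS had 21.8, 15.4 and 20.2 against 13.0. A site within Hk1, the hexokinase gene of glycolysis, lay only 138 bp from an H3K27ac peak and had 14.2, 14.1 and 15.1 against 13.0. Intronic sites of Col27a1, a fibrillar collagen gene, and Baiap2, an actin adaptor gene, had 17.6, 16.2 and 17.6 against 12.6, and 21.4, 21.7 and 21.3 against 12.4.

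The library labelled aged had the lowest of the 4 fold enrichments at 10 of these 10 sites, and at 356 of the 515 sites in all 4 libraries (69.1%). The same held at 68.2% of the distal H3K27ac regions in all 4 libraries, so the order is not particular to sites without H3K27ac. Fold enrichment is relative to each library's own background.

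**Figure D5:**
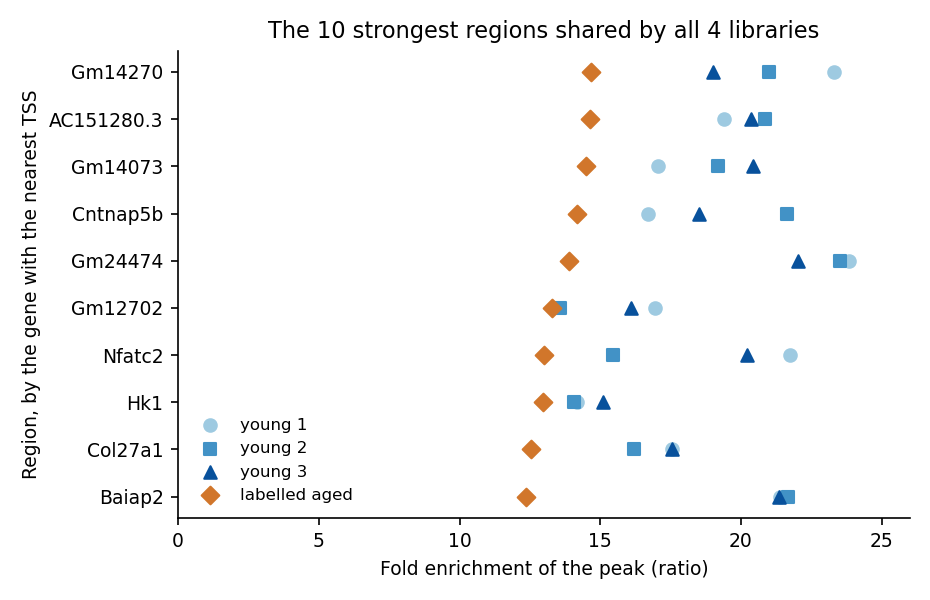
Fold enrichment (horizontal axis, ratio) in young 1, 2 and 3 (blue) and the library labelled aged (orange) at the 10 sites in all 4 libraries with the highest lowest value, each named by the gene with the nearest TSS (vertical axis). The orange points lie between 12.4 and 14.7, each below all 3 blue points of its row.

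Sites found in all 3 young libraries were then looked up in the library labelled aged. A peak was present there at 515 of 679 sites without H3K27ac (75.8%, 72.4 to 79.0), at 935 of 1075 distal regions with H3K27ac (87.0%, 84.8 to 88.9) and at 1015 of 1099 regions near a TSS (92.4%, 90.6 to 93.9). By the lowest of the 3 young fold enrichments, the share without and with H3K27ac was 61.0% and 71.3% below 6, 74.8% and 86.6% from 6 to 8, and 87.6% and 94.8% from 8 up. Recovery of sites found in the other 3 libraries was 75.3% against 78.2% in young 3, 89.9% against 92.5% in young 2 and 93.8% against 95.8% in young 1, so the gap of the library labelled aged was the widest of the 4. With 1 library of that label, library and age cannot be told apart. An example of a site missing there was the intergenic stretch 62739 bp from Tas1r2, a sweet taste receptor gene, among the 3 strongest of young 3, with folds of 10.2, 11.2 and 14.1 in the young libraries and no aged peak. The reverse was seen 12685 bp from Trdmt1, a tRNA methyltransferase gene, where the fold was 13.1 in the library labelled aged and 7.77 in young 1, with no peak in young 2 or 3.

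Among sites in all 4 libraries, the 3 farthest from an H3K27ac peak were named by the nearest protein-coding TSS. The first lay 398201 bp from H3K27ac and 14315 bp from Rybp, a Polycomb-associated gene. Another lay 337684 bp from H3K27ac and 47393 bp from Hoxb1, a homeobox gene. The last lay 175857 bp from H3K27ac and 131879 bp from Noct, which encodes the circadian phosphatase nocturnin. For the latter 2, the TSS of another gene was nearer. The folds of these sites ran from 10.2 to 13.4 for Rybp, from 5.07 to 8.91 for Hoxb1 and from 9.37 to 13.3 for Noct. Regions at the limits of the definition were also listed. The regions just past 3000 bp, at Plekhg5 and Gm8659, were 3001 bp from a TSS and had 1 peak each, of fold 3.45 and 3.44 in the library labelled aged, while Ppard (2997 bp, fold 5.48 there) and Chn1os3 (2996 bp, folds 3.82 to 7.50 in 3 libraries) were just inside it and left out. The sites at Creb3l1 (fold 3.31) and Gm20786 (3.38) touched an H3K27ac peak, and the regions at Gm4872 (folds 9.43 to 14.4 in 3 libraries) and Gm34531 (7.35 and 8.91) shared 1 and 2 bp with one and were left out.

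By nearest protein-coding TSS, the sites fell to 4476 genes, and 2767 of these had 1 site. The 5 genes with the most sites included Myc, a growth-promoting transcription factor (15 sites over 1.33 Mb of nearest distal sequence). The others were Rbms3, an RNA-binding protein gene (13 over 1.27 Mb), Zfp36l1, which promotes mRNA decay (13 over 0.343 Mb), Gm21119 (12 over 0.173 Mb) and the protocadherin Pcdh7 (12 over 3.61 Mb). Of these, 3 of the Myc sites, 1 each of Rbms3, Zfp36l1 and Pcdh7 and 0 of Gm21119 were in 3 or 4 libraries. At Pcdh7, 9 of the 12 were of young 1 alone, against 28.3% of all sites. At Zfp36l1, 9 of the 13 were of the library labelled aged alone, against 47.8% of all sites. The sites averaged 3.74 per Mb, those in 3 or 4 libraries 0.439. Pcdh7, with 3.32 sites per Mb, was below that average of all sites.

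Gene groups were described by the share of sites nearest to them beside their share of distal sequence without H3K27ac, with no test. Myogenic and satellite cell regulators (29 genes) were nearest to 32 sites (0.401%, against 0.131% of sequence) and to 8 of the 940 sites in 3 or 4 libraries (0.851%). Secreted factors of senescence (54 genes) were nearest to 42 sites (0.526%, against 0.303%) and to 7 of the 940 (0.745%). The AP-1 and ATF family (19 genes) had 12 sites (0.150%, against 0.0454%) and 1 shared site. Sarcomere genes (31) had 17 sites (0.213%, against 0.201%) and 1 shared site. Neuronal adhesion and synapse genes (44) lay the other way, with 162 sites (2.03%, against 3.87%) of which 3 were in 3 or 4 libraries (0.319% of 940), while they held 3.05% of the sites of young 1 alone and 2.25% of those of the library labelled aged alone. Chemosensory receptor genes (1479) had 120 sites (1.5%, against 1.70%) and 0 of the 940. By the rule of 3, an approximate one-sided 95% limit, this allows a share of up to 0.319%. Among distal regions with H3K27ac, the share was 0.526% for the myogenic group, 0.658% for the secreted factors and 0.237% for the AP-1 and ATF family. Each was higher than over all sites here. The 3 groups also held more of the distal sequence with H3K27ac (0.469%, 0.396% and 0.124%) than of that without it. The share of regions was lower than over all sites for sarcomere genes (0.0263%, against 0.221% of the sequence with H3K27ac). It was also lower for neuronal genes (0.473%, against 0.906%) and chemosensory genes (0.289%, against 0.180%). Shares of the 2 classes of regions thus have different sequence baselines.

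At the myogenic genes, the site 24304 bp from Chrdl2, a secreted BMP antagonist, was the strongest, with folds of 18.4, 18.8 and 17.8 in the young libraries and 11.0 in the library labelled aged. Near Myod1, the myogenic determination factor, a site 38484 bp from its TSS had 9.59, 9.01 and 10.7 against 4.12. Near Hes1, a Notch target, the folds were 8.91, 10.7 and 5.60 against 6.43, and TGACTCA or its complement stood within 50 bp of the summit. Sites near Met, the receptor of hepatocyte growth factor (4.57, 8.59 and 7.30), Notch1 (5.30, 8.82 and 8.68) and Pax7, the satellite cell transcription factor (3.68, 6.2 and 6.05), had peaks in all 3 young libraries and none in the library labelled aged. The Pax7 site lay 7610 bp from its TSS and 57838 bp from the nearest H3K27ac peak. Sites near Megf10 and Sdc3 were in 3 libraries, with folds from 4.55 to 5.81 and from 7.47 to 8.22. Only sites in at least 3 libraries were named, so a site of the library labelled aged alone could not appear. Of the 32 sites nearest to these genes, 7 were of that library alone, against 47.8% of all sites and 44.9% of all JunB regions. Over all sites, 679 had a peak in every young library, and 164 of these had none in the library labelled aged.

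At the secreted factors, the site 4991 bp from Plau, the urokinase gene, was the strongest, with 11.8, 11.2 and 11.5 in the young libraries and 6.53 in the library labelled aged. Near the chemokine gene Ccl2 the folds were 8.88, 7.82 and 7.47 against 5.07. Near Lif, an IL-6 family cytokine, 1 site had 7.65, 7.50 and 8.99 against 4.71 and another had 5.82, 4.93 and 7.12 against 6.18. Sites near the colony-stimulating factor genes Csf1 (9.53, 6.85 and 8.85) and Csf2 (9.14, 7.77 and 8.04) had no peak in the library labelled aged. The same naming rule held here, and 20 of the 42 sites of this group, not named, were of that library alone. Over all sites that share was 47.8%. At Tnfrsf1b, a TNF receptor gene, that library had the highest fold, 9.50 against 6.82 and 6.75 in young 1 and 2, with none in young 3. In the other groups, the shared sites were near Jdp2, an AP-1 repressor gene (7.07 to 9.20), 400736 bp from Myom2 of the sarcomere M-band (8.99 to 14.6 in 3 libraries), at Pcdh7 (8.05 to 9.26) and at Tenm3, a teneurin (5.71 to 10.2 in all 4 and 4.15 to 7.30 in 3). The nearest gene is a position and not a target of the site.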

How the data were processed

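CUT&RUN-seq, in which an antibody-directed nuclease releases the DNA next to a bound protein, gave 4 JunB lists and 1 H3K27ac list of peaks from mouse MuSCs. After trimming, the authors used Bowtie2 for alignment to mm10, dropped redundant reads and ran MACS2 separately for every library (versions, control library and multi-mapping filter are not given in the sources used here). The deposited values of a peak are its fold enrichment (a ratio to the local background), its −log10 p and −log10 q, a summit position and a score. The deposited score was not used, and the deposited −log10 p and −log10 q only ranked or filtered peaks.

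Peaks that overlapped or touched were merged, and overlap meant at least 1 bp. Sequence came from the GRCm38.p6 assembly with its soft-masking, which has the coordinates of mm10. Motifs were sought on both strands within 50 bp of each summit, with 101 bp flanks centred 500 bp away, and within 300 bp, with flanks at 1000 bp. Copies of the 31 bases at the summit were counted on chromosomes 1 to 19, X and Y on both strands. A region's summit was that of its peak with the highest fold enrichment. Sites were named by the nearest TSS of any gene. Those of the gene groups and those farthest from H3K27ac were named by the nearest protein-coding TSS instead. Sites were also counted per gene and per gene group by the nearest protein-coding TSS. The 1 kb and 100 kb grids were fixed positions. The unit of testing was the library (exact two-sided sign-flip permutation test, Benjamini-Hochberg over 5 comparisons). The p-values describe only how far these libraries agree. A p of 0.125 in this test arises whenever all 4 differences share a sign, whatever their spread. Python 3.11.15, numpy 2.4.6, scipy 1.17.1 and matplotlib 3.10.9 were used, and merging, classes, motifs, copies and tests were tested on simulated data.

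The sites and gene groups were chosen with earlier results of these data known. Named sites were, by rule, the 10 sites in all 4 libraries with the highest lowest fold enrichment, the 3 strongest by −log10 p in each library, the 5 genes nearest to the most sites, group genes nearest to a site in at least 3 libraries, the 3 sites in all 4 libraries farthest from H3K27ac, and the 2 regions on each side of each limit. The 300 bp window, the single-copy restriction, the match sequences and the shared 21 bases were chosen after seeing the data. Alternatives covered the promoter window, TSS set, midpoint, H3K27ac threshold and distance, JunB thresholds, merge gap, sharing, motif window and each library left out. The result of 1 further marker list is not reported here.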

Additional observations from a re-analysis of the deposited data

How the results depend on the processing

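Holding every JunB list to a −log10 p of at least 5.33 left 5178 sites, 38.4% with an aged peak alone and 29.3% in at least 2 libraries. With the 2000 strongest peaks of each library, 824 sites (41.4% of distal regions) were left, 14.0% with an aged peak alone, 55.6% in at least 2 libraries, 43.9% intergenic and 59.1% within 10 kb of H3K27ac, and the repeat-masked difference turned to -1.13 points (exact p = 0.5). Requiring 2 libraries left 1704 sites (44.5% of distal regions), 45.4% intergenic, 54.6% within 10 kb, and 0% with an aged peak alone by construction. H3K27ac peaks held to a −log10 q of at least 5 gave 22.7% in at least 2 libraries. The single-copy restriction, added after seeing the data, gave 4781 sites (57.2% of distal regions), 50.1% with an aged peak alone, 30.5% in at least 2 libraries, 44.7% intergenic and 48.9% within 10 kb. The AP-1 difference turned to -7.28 points anywhere in the peak (exact p = 0.375), to -4.79 within 300 bp (added after seeing the data) and to -0.263 without young 2. The causes of these changes were not tested, beyond the one set by construction. The matching shares over all JunB regions were not computed.

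With each library left out in turn, the number of sites ran from 4216 (without the library labelled aged) to 7910, their share of distal regions from 60.3% to 67.8%, the share in at least 2 libraries from 18.6% to 28.6%, the intergenic share from 50.9% to 54.0%, and the share within 10 kb of H3K27ac from 35.1% to 39.2%. The share with an aged peak alone ran from 48.7% to 74.1% (without young 1) and cannot be given without the library labelled aged. The AP-1 difference ran from -0.263 to 0.992 points, fold enrichment from -0.26 to -0.14 (log2), the share found elsewhere from -28.3 to -15.0 points, GC from -1.51 to -0.950 points and the repeat-masked share from 9.20 to 20.1 points. Fold enrichment, the share found elsewhere and GC kept their direction under every alternative run for them, but became smaller under several. Fold enrichment was -0.06 (log2) with the 2000 strongest peaks, -0.11 in at least 2 libraries and -0.13 with single-copy summits, the share found elsewhere -10.0 points with the 2000 strongest peaks and -13.5 with single-copy summits, GC -0.677 points in at least 2 libraries, and the repeat-masked difference 3.62 points in at least 2 libraries and 2.43 with single-copy summits. The AP-1 difference rose to 1.56, 0.950 and 1.46 points in at least 2 libraries, with the 2000 strongest peaks and with single-copy summits. Within a library and at equal sharing, the median fold was higher without H3K27ac in some strata (6.76 against 6.50 in young 2 for 2 libraries, 7.30 against 7.05 for 3). Also, none of the 5 tests could pass 0.05. The labels state no pairing of young with aged mice, and with 1 aged library no paired comparison of ages was possible. The depth behind each peak is unknown, so a missing peak is no measure of absent binding.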
